A study of Mus musculus with 3 samples.

Results

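The insulin-like growth factor (IGF) genes described here are 10 genes of mouse epididymal fat, which are the ligands Igf1 and Igf2, the receptors Igf1r and Igf2r, and the binding proteins Igfbp2, Igfbp3, Igfbp4, Igfbp5, Igfbp6 and Igfbp7. They were chosen by gene name, and every probe that carries one of these names was read, which gave 19 probes for the 10 of 37324 genes on the arrays. The study asked how the small adipocytes that sink out of the floating layer of digested fat, named SPA, differ from the stromal-vascular cells (SVC) and from the mature white adipocytes (MWA). All cells came from the fat of male C57/BL mice, 20 weeks old, after collagenase digestion, and the records name no transgene or drug. A spin at 9 g for 1 s gave SVC as the lower phase, and a second spin of the floating cells at 226 g for 3 min gave SPA as sediment and MWA as the floating cells. SVC and SPA were grown in DMEM and harvested at 90% confluence. The records give no culture step for MWA, so between MWA and the other fractions culture and kind of cell cannot be told apart. The sample titles also carry another date for MWA, which cannot be told apart from the fraction either. Each fraction was measured on 1 array, so no difference has a replicate check, and tests and p-values are left out.

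IGF1 and IGF2 are secreted growth factors that act through the tyrosine kinase receptor encoded by Igf1r, and fat is a known source of IGF1. The product of Igf2r takes up IGF2 for breakdown in the lysosome and carries no kinase. The binding proteins hold the ligands outside the cell, where they can block, store or deliver them, and proteases such as pregnancy-associated plasma protein A free the ligands by cutting the binding proteins.

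The arrays are Agilent 1-colour arrays with probes of 60 bases. The processed signal is the brightness of a spot after background subtraction by Agilent Feature Extraction, and its 75th percentile was 430.4 for SVC, 439.1 for SPA and 365.8 for MWA. A level is the log2 of the signal minus the log2 of that percentile, so 0 is the 75th percentile of an array. A log2 ratio is the difference between the levels of 1 probe on a pair of arrays, and a fold is the same ratio on the linear scale. A gene was read at its brightest probe, and levels of different probes are not compared. A spot that Feature Extraction did not mark as well above background has only a bound, and the fold is then written as at least N-fold. Replicate spots of 1 probe on 1 array had, on the log2 scale, a median SD of 0.04 in SVC and in SPA and 0.05 in MWA. The largest of these medians gives a typical SD of 0.07 for a log2 ratio, which single probes can exceed. Only probes well above background at every spot were used, so dim probes are not covered. This error of replicate spots is within the array and leaves out the spread between mice and between cultures.

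The fractions were checked against cell type markers. Adiponectin (Adipoq) and perilipin (Plin1), which mark adipocytes, were not well above background in SVC, had levels of 1.56 and 0.95 (log2) in SPA, and had levels of 8.44 and 6.10 in MWA. All 8 adipocyte markers were well above background in SPA and in MWA, and their summed scaled level (multiples of the 75th percentile) came to 8.82 for SVC, 61.8 for SPA and 2296 for MWA. SVC and MWA had all 12 macrophage markers well above background and SPA had 11. The macrophage list had a median log2 ratio of -0.60 for SPA over SVC and of 0.62 for MWA over SPA, where 5 of the 12 were at least 5-fold higher and 1 at least 5-fold lower. All 5 erythrocyte markers were well above background in MWA, where their summed scaled level was 679, against 0.32 in SVC and 0.35 in SPA. In such bulk samples, fewer cells of a type and less RNA per cell cannot be told apart.

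**Figure D1:**
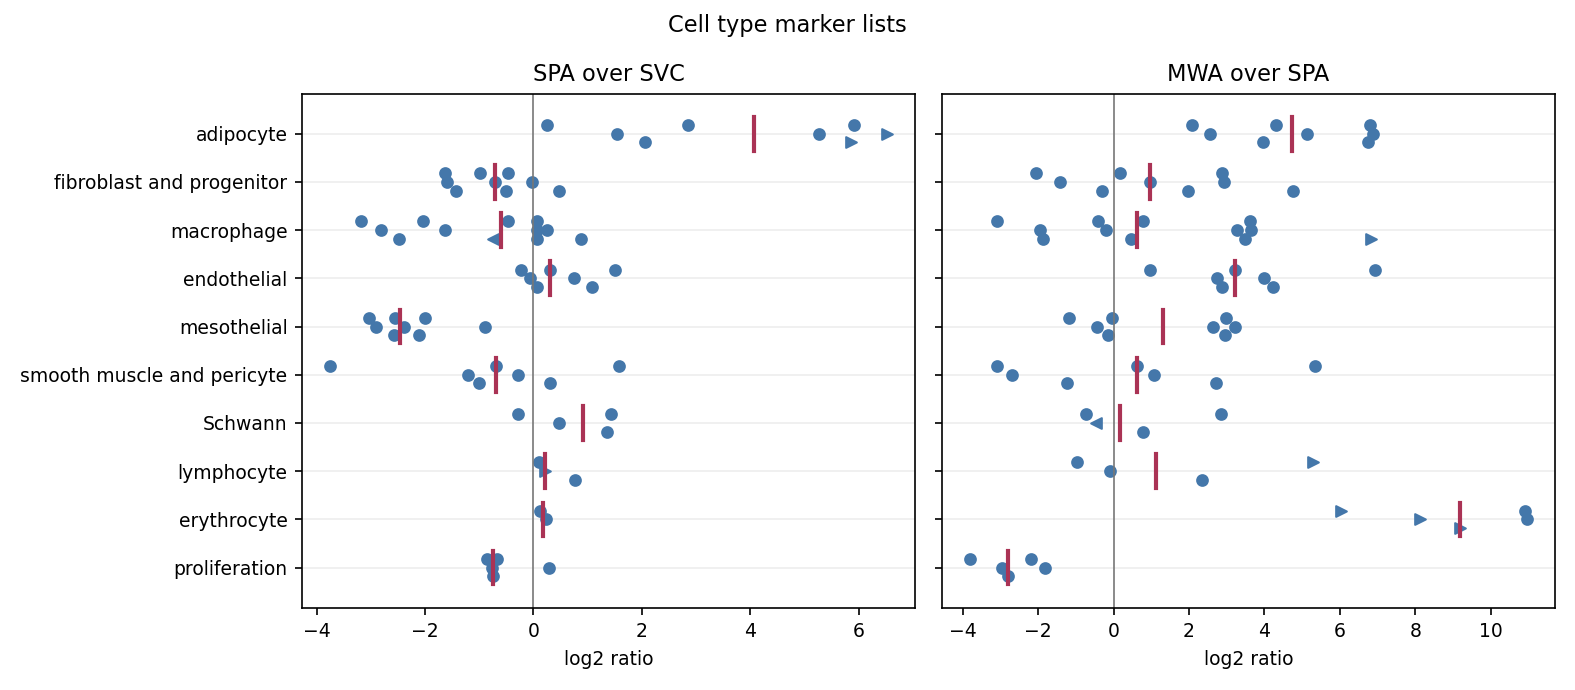
Log2 ratios of the cell type marker genes by list, for SPA over SVC and MWA over SPA (1 array per fraction, different axis ranges). Points are genes at their brightest probe, triangles are bounds, and red bars are list medians. Adipocyte markers have a median of 4.06 and mesothelial markers one of -2.47 for SPA over SVC, and erythrocyte markers one of 9.19 for MWA over SPA.

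Igfbp5 and Igfbp2 were the genes of the family that stood at least 5-fold apart between SPA and SVC, in opposite directions, and Igfbp5 and Igf2 were the ones that stood so far apart between MWA and SPA. Probe sequences of Igfbp2 and Igfbp4 are shown first, followed by the bases before the start sites of Igfbp2, Igfbp4 and Igfbp5. For Igfbp2 and Igfbp4 a probe has an open reading frame of the coding sequence. The Igfbp2 probe is on the plus strand at chr1:72898677-72898736 of mm9, and the capitals mark the stop codon that ends the reading frame. The Igfbp4 probe shown is the less bright of the pair for that gene, on the plus strand at chr11:98909591-98909650 of mm9.
Igfbp2 probe: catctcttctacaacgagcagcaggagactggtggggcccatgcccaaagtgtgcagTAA
Igfbp4 probe: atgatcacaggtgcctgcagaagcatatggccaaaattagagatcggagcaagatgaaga

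The bases just before the start sites of the same binding protein genes come from RefSeq on GRCm38.p6, where all 10 genes have at least 1 start site. They are shown because these 3 had the largest ratios among the binding proteins, and capitals mark the core promoter motifs that were searched on both strands. Of the 32851 RefSeq windows around all mouse start sites, 13.62% hold the letters TATAAA of the TATA box and 37.41% hold the letters CCAAT. The letters GGGCGG of the GC box are in 35.66% of the windows, and the E-box letters CACGTG in 7.15%. These windows are longer than the stretches printed here and run past the start site. The stretches lie at chr1:72824360-72824479 on the plus strand for Igfbp2 (1 of its 2 start sites), at chr11:99041124-99041243 on the plus strand for Igfbp4 and at chr1:72874866-72874985 on the minus strand for Igfbp5.
Igfbp2 upstream: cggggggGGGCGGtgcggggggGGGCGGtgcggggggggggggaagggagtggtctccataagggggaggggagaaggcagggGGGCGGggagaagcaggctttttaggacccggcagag
Igfbp4 upstream: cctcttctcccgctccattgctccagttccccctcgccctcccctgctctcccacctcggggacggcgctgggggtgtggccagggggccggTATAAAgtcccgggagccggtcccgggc
Igfbp5 upstream: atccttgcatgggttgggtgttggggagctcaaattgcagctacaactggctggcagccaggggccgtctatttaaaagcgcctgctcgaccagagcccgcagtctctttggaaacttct
The stretch of Igfbp2 holds GC boxes that begin 113, 98 and 37 bases before the start. The stretch of Igfbp4 holds a TATA box that begins 28 bases before the start. For Igfbp5 neither the stretch nor its whole window holds the exact letters of any of the 4 motifs. Variants of these letters were not searched. These matches are descriptions of letters, and the arrays do not measure binding. In the RefSeq gene table Igfbp2 and Igfbp5 are neighbours on opposite strands with 0 genes between them, and the neighbour of Igfbp3 is Igfbp1, whose probe was not well above background on any array.

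**Figure D2:**
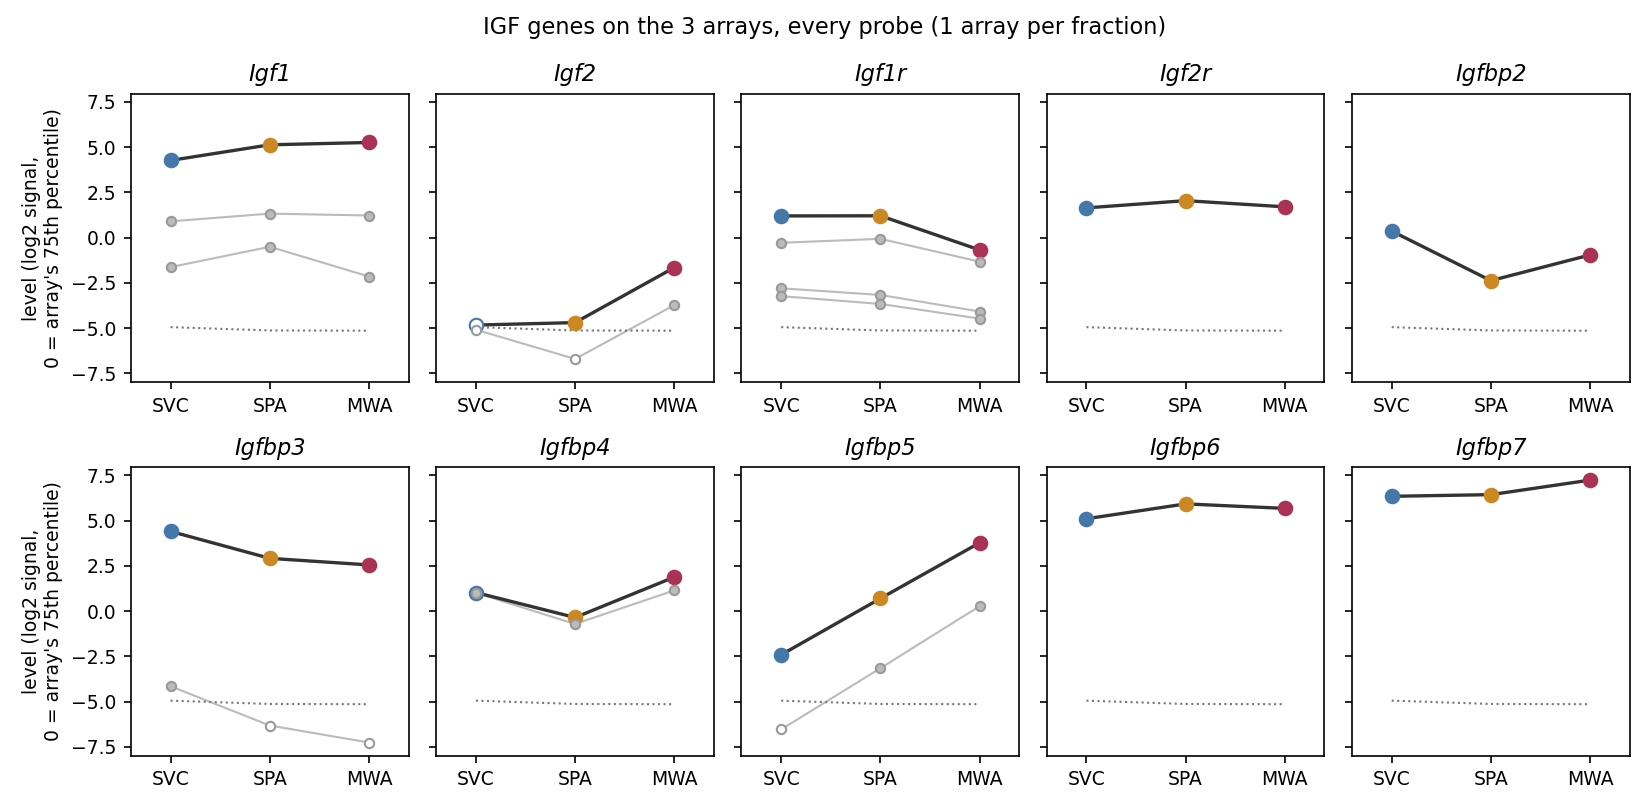
Levels of the 10 IGF genes in SVC, SPA and MWA (log2 signal, 0 at the 75th percentile of the array, 1 array per fraction). Black lines join the brightest probe of a gene and grey lines its other probes, open symbols were not well above background, and the dotted line is the lowest level of a probe well above background. Igfbp5 is higher in each fraction than in the one before, and Igfbp2 and Igfbp4 are lowest in SPA.

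Of the ligands, Igf1 was bright in all fractions and Igf2 was near background in SVC and SPA. The signal of Igf1 at its brightest probe, on the plus strand at chr10:87393516-87393575 of mm9, came to 8283 for SVC, 15384 for SPA and 14009.95 for MWA. Its levels were 4.27, 5.13 and 5.26 (log2), so SVC was lowest, and SPA was 1.82-fold above SVC. MWA and SPA differed by a log2 ratio of 0.13 at this probe.

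The other probes of Igf1 are annotated to other transcripts. The second probe gave signals of 802 for SVC, 1100.4 for SPA and 853 for MWA, and log2 ratios of 0.43 (SPA over SVC) and -0.10 (MWA over SPA). The third probe, named for a single full-length cDNA, gave 139, 309 and 82.3, and log2 ratios of 1.13 and -1.64. SPA exceeded SVC at all 3 probes and MWA exceeded SPA at 1 of 3, so the direction for MWA over SPA turns with the probe.

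Igf2, whose transcript is best known from the fetus, gave a signal of 15.1 in SVC, 16.9 in SPA and 116 in MWA at its brighter probe on the minus strand at chr7:149837115-149837174 of mm9. The spot in SVC was not well above background, and that in SPA was, with a raw signal of 1.64 times its local background. MWA was 8.23-fold above SPA and at least 9.04-fold above SVC. The second probe, at chr7:149839661-149839720, gave 12.6 in SVC and 4.18 in SPA, neither well above background, and 27.5 in MWA, which is at least 2.64-fold above SPA. Both probes were therefore highest in MWA. The brighter one passed 5-fold, and the bound at the second did not reach it. The fold depends on how the dim end is read. The log2 ratio of MWA over SPA was 3.04, but 1.38 with the normexp background correction, which is under 5-fold. The median of both probes was 2.22, which is only a lower bound because the second probe gave a bound.

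Of the receptors, Igf1r was lower in MWA than in the cultured fractions at every probe, and Igf2r was within 2-fold in every comparison. Igf1r gave a signal of 987 in SVC, 1013 in SPA and 228 in MWA at its brightest probe, on the plus strand at chr7:75371371-75371430 of mm9. The log2 ratio of SPA over SVC was 0.01, less than the spread of replicate spots, and its sign turned with the normexp correction (-0.02), with quantile normalization (-0.03) and with the other 75th percentile and the deposited ratios. MWA was 3.70-fold lower than SPA and 3.68-fold lower than SVC.

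The other 3 probes of Igf1r gave log2 ratios of -1.26, -0.92 and -0.81 for MWA over SPA, and the local background of 2 of these spots in MWA was marked as outlying. All 4 probes were lower in MWA, by between 1.75-fold and 3.70-fold. For SPA over SVC the 4 probes ran from -0.43 to 0.22 (log2), 2 on either side of 0. The proliferation markers, all of them genes of dividing cells, were also lower in MWA, where their summed scaled level was 11.04, against 59.5 in SVC and 48.9 in SPA, and their part in the difference in Igf1r was not tested.

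Igf2r gave a signal of 1344 in SVC, 1808 in SPA and 1189 in MWA. Its levels were 1.64, 2.04 and 1.70 (log2), so SPA was highest, by a log2 ratio of 0.40 over SVC. SVC and MWA differed by 0.06, less than the typical SD of a ratio of replicate spots. Its 1 probe lies on chromosome 17, where the array annotation gives 11 bases from 12875253 to 12875263 on the minus strand of mm9.

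Among the binding proteins, Igfbp5 was higher in SPA than in SVC and higher again in MWA. Its protein binds IGFs and the extracellular matrix. The signal at the brighter probe, on the minus strand at chr1:72904829-72904888 of mm9, came to 80.6 for SVC, 712 for SPA and 5007 for MWA. The levels were -2.42, 0.70 and 3.77 (log2), so the step from SVC to SPA, 8.66-fold, was of about the size of the step from SPA to MWA, 8.44-fold. MWA was 73.1-fold above SVC.

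The second probe of Igfbp5, at chr1:72904506-72904552, gave 4.61 in SVC, which was not well above background, 49.1 in SPA and 441 in MWA. SPA was at least 3.46-fold above SVC and MWA 10.8-fold above SPA at this probe. Both probes kept the same order of fractions. With the normexp correction the log2 ratio of SPA over SVC at the brighter probe was 2.38, against 3.11, and it remained above 5-fold. The adipocyte markers had the same order, since SPA exceeded SVC at least 5-fold for 5 of the 8 and MWA exceeded SPA at least 5-fold for 7 of the 8, and their part in the level of Igfbp5 was not tested. Of the 19962 genes well above background on all arrays, the one nearest to Igfbp5 in both log2 ratios was G0s2, an inhibitor of adipose triglyceride lipase, whose ratios were 2.86 (SPA over SVC) and 2.89 (MWA over SPA). Next were Atp1b2, a sodium pump subunit, with 2.53 and 2.52, and Fam13a, with 2.46 and 3.86. Atp1b2 was higher in MWA at both of its probes, by a log2 ratio of 1.24 at the lower one. The distance was the larger of the differences in the 2 ratios, 0.25 for G0s2, 0.58 for Atp1b2 and 0.79 for Fam13a.

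Igfbp2 and Igfbp4 were both lowest in SPA. Igfbp2, whose protein is known to restrain IGF action and the formation of fat cells, gave a signal of 553 in SVC, 84.3 in SPA and 188 in MWA at the coding probe shown above. SPA was 6.69-fold lower than SVC, MWA was 2.68-fold above SPA, and MWA was 2.50-fold lower than SVC. With the normexp correction the log2 ratio of SPA over SVC was -2.13, against -2.74, which is under 5-fold, and that of MWA over SPA was 0.998, against 1.42, which is just under 2-fold.

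Igfbp4, whose protein is a blocking carrier and the main substrate of pregnancy-associated plasma protein A, gave 877 in SVC, 343 in SPA and 1344.5 in MWA at its brighter probe, on the plus strand at chr11:98913334-98913393 of mm9. SPA was 2.61-fold lower than SVC and MWA was 4.70-fold above SPA. The coding probe shown above gave 865, 268 and 808, with SPA 3.29-fold lower than SVC and MWA 3.62-fold above SPA. SPA was thus lowest at both probes. MWA and SVC differed by a log2 ratio of 0.85 at the brighter probe and of 0.14 at the other.

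The markers of mesothelial cells, which line the surface of the epididymal fat, had the same order of fractions in part. Of these 8 markers, 7 were at least 2-fold lower in SPA than in SVC and 5 at least 5-fold lower, and their summed scaled level came to 71.9 for SVC, 17.9 for SPA and 26.7 for MWA. Mesothelin (Msln) had levels of 2.96, 0.38 and 3.36 (log2), and Upk3b had levels of 0.72, -2.19 and 1.03. For MWA over SPA 4 of the 8 were at least 5-fold higher, whereas Upk1b (-0.03), Wt1 (-0.14), Krt8 (-0.45) and Krt18 (-1.17) had log2 ratios below 0. With the normexp correction 2 of the 8 were at least 5-fold lower in SPA than in SVC. The complement genes C1qa, C1qb and C1qc were also lowest in SPA, at least 5-fold below SVC, as 3 of the 12 macrophage markers on the arrays, while the summed scaled level of all 12 came to 549 for SVC, 592 for SPA and 215 for MWA, of which the lysozyme gene Lyz2 alone made up 428, 447 and 123. The 9 fibroblast and progenitor markers were also lowest in SPA as a sum, with 299 for SVC, 165 for SPA and 458 for MWA. Of these 9, 3 were at least 2-fold lower in SPA than in SVC and 0 at least 5-fold lower. For MWA over SPA 3 of the 9 were at least 5-fold higher, and 2 were at least 2-fold lower. The part of any of these cell types in Igfbp2 and Igfbp4 was not tested. The genes nearest to Igfbp2 in both log2 ratios were Pilrb1, with -2.66 and 1.31, Stk26, a kinase gene, with -2.99 and 1.20, and Tnfrsf11b, the gene of osteoprotegerin, with -2.57 and 1.76. Their distances were 0.12, 0.25 and 0.34, and the other probes of Pilrb1 and Stk26 had the same signs.

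Igfbp3, the main IGF carrier of the blood, was highest in SVC. It gave a signal of 9129.6 in SVC, 3316 in SPA and 2147 in MWA at its brighter probe, on the minus strand at chr11:7106193-7106252 of mm9. SPA was 2.81-fold lower than SVC, and MWA was 3.61-fold lower than SVC and 1.29-fold lower than SPA. The second probe was well above background in SVC alone, with a signal of 24.1, and SPA was at least 1.97-fold lower there.

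Igfbp6 and Igfbp7 were bright in all fractions and within 2-fold in every comparison. Igfbp6, a carrier that prefers IGF2, gave a signal of 14819.7 in SVC, 26715 in SPA and 18748 in MWA at its 1 probe, on the plus strand at chr15:101979852-101979911 of mm9. SPA was highest, 1.77-fold above SVC, and MWA over SPA had a log2 ratio of -0.25, the sign of which turned with quantile normalization (0.05). Igfbp7, a related protein that binds IGFs weakly and is known from blood vessels, gave 35056 in SVC, 38085 in SPA and 55372 in MWA at its 1 probe, on the minus strand at chr5:77778355-77778414 of mm9. Its SPA over SVC ratio was 0.09 (log2) and its MWA over SPA ratio 0.80, so MWA was highest. With quantile normalization the ratio for MWA over SPA was 1.18, which is above 2-fold. For all 7 endothelial markers MWA exceeded SVC at least 5-fold at the brightest probe. Their summed scaled levels were 3.27 for SVC, 5.41 for SPA and 81.2 for MWA. The 3 probes of the marker Vwf, however, ran from -0.20 to 2.46 (log2) for MWA over SVC. The part of endothelial cells in Igfbp7 was not tested.

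**Figure D3:**
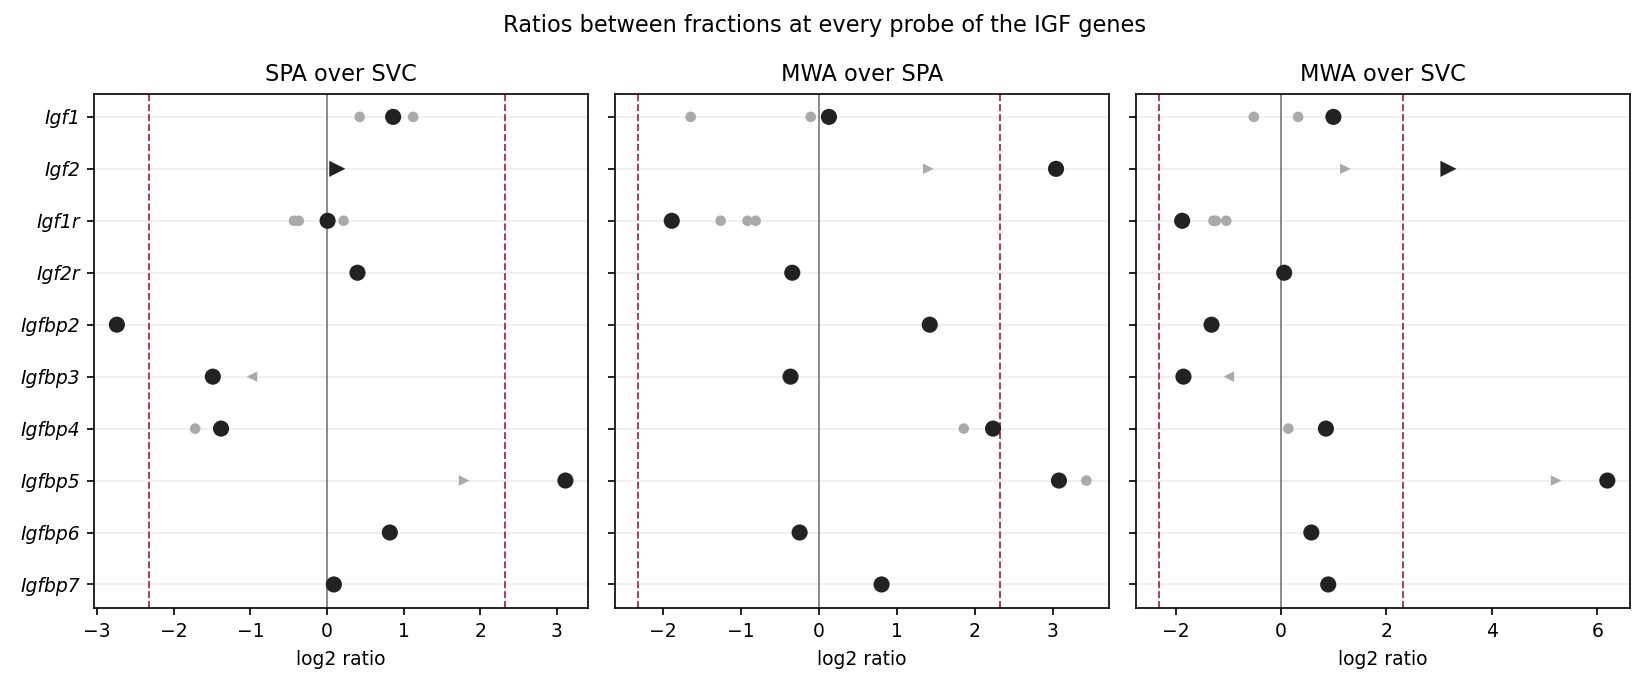
Log2 ratios of the 10 IGF genes for SPA over SVC, MWA over SPA and MWA over SVC (1 array per fraction). Large black symbols are the brightest probe and small grey symbols the other probes, triangles are bounds that point away from 0, and dashed lines mark 5-fold in either direction. Igfbp5 lies beyond 5-fold in all 3 comparisons at its brightest probe, and the 4 probes of Igf1r lie below 0 for MWA over SPA.

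Counts over the family were read against all genes with a fold. For SPA over SVC, 1 of the 10 genes (Igfbp5) was at least 5-fold higher, where 0.322% of 22691 genes were, and 1 (Igfbp2) was at least 5-fold lower, where 0.353% were. At 2-fold the counts were 1 higher, against 3.91% of all genes, and 3 lower (Igfbp2, Igfbp3 and Igfbp4), against 3.26%. For MWA over SPA, 2 genes (Igf2 and Igfbp5) were at least 5-fold higher, against 5.47% of 24098 genes, and 0 were at least 5-fold lower, against 3.97%. At 2-fold 4 were higher (Igf2, Igfbp2, Igfbp4 and Igfbp5), against 15.7%, and 1 was lower (Igf1r), against 18%. For MWA over SVC, 2 genes (Igf2 and Igfbp5) were at least 5-fold higher, against 5.74% of 23493 genes, and 0 were at least 5-fold lower, against 3.98%. At 2-fold 2 were higher, against 17.3%, and 3 were lower (Igf1r, Igfbp2 and Igfbp3), against 18.1%.

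The comparisons share arrays, so their counts are not independent of each other. The median log2 ratio of the 10 genes was 0.11 (SPA over SVC), 0.47 (MWA over SPA) and 0.71 (MWA over SVC), beside 0.07, -0.07 and -0.00 over all genes. The median size of the log2 ratio, without its sign, was 0.84, 1.11 and 1.16, beside 0.25, 0.66 and 0.70 over all genes. Igfbp5 lay above 99.87% of all genes for SPA over SVC, and 0.15% of genes lay below Igfbp2.

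**Figure D4:**
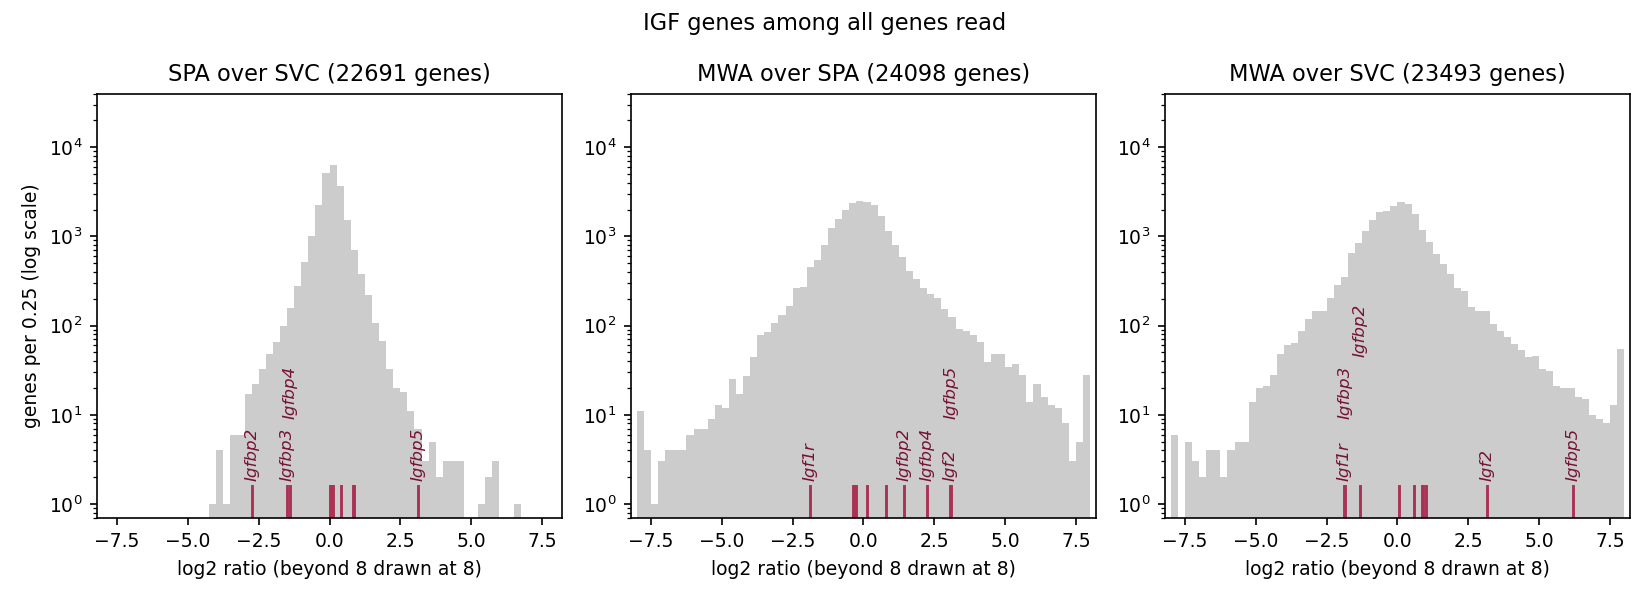
Number of genes per step of log2 ratio (log scale) for SPA over SVC, MWA over SPA and MWA over SVC, with the 10 IGF genes as red marks and those at least 2-fold apart named. Igfbp2 and Igfbp5 lie at opposite ends for SPA over SVC, with log2 ratios of -2.74 and 3.11.

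The other genes of the pathway were read in 7 lists of 38 genes in all. Between SPA and SVC 32 of them had a fold. At 5-fold 0 were higher and 0 were lower, beside 0.322% and 0.353% of all genes. At 2-fold 1 was higher (Kazald1) and 6 were lower, beside 3.91% and 3.26% of all genes. For MWA over SPA 34 of the genes had a fold, which was at least 5 upwards in 8 and at least 5 downwards in 5, beside 5.47% and 3.97% of all genes. With the normexp correction these were 6 and 4, as Stc1, Esm1 and Kazald1 were under 5-fold.

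In the carriers and the protease system, as in the other lists, differences of at least 5-fold were found only with MWA. Of the 3 carriers, Igfals alone was well above background on any array. Igfals, whose product joins IGF and IGFBP3 into the large complex of the blood, had a level of 0.35 (log2) in MWA and was not well above background in SVC or SPA, so MWA was at least 44.7-fold above SPA. Stc1, which encodes a stanniocalcin that inhibits the proteases, was at least 10.69-fold above SPA in MWA at 1 of its 2 probes, and the other gave no fold. Pappa, the gene of pregnancy-associated plasma protein A, had levels of -0.13 in SVC, -1.43 in SPA and -3.14 in MWA (log2), and MWA was 8.10-fold lower than SVC. Pappa was lower in SPA than in SVC, as Igfbp4 was, and lower again in MWA, where Igfbp4 was highest. A link between these genes was not tested.

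Of the 8 genes of the insulin receptor family and its adaptors, 2 passed 5-fold upwards for MWA over SPA, beside 5.47% of all genes. Irs2, an adaptor of the insulin and IGF1 receptors, had levels of 1.36 in SVC, 1.68 in SPA and 5.47 in MWA (log2), 13.9-fold higher in MWA than in SPA. Grb14, an inhibitor of insulin receptor signalling, was 17.1-fold higher, and both of its probes with a fold had high log2 ratios, 4.10 and 4.69. The insulin receptor gene Insr was 2.93-fold higher in MWA than in SPA, whereas Igf1r was lower there. At 2-fold 4 genes of this list were higher, beside 15.7% of all genes, and 2 were lower, beside 18%. The lower ones were Shc1, 2.49-fold, and Grb10, 2.03-fold, at their brightest probes. Of the 6 genes of the intracellular cascade 1 passed 5-fold upwards for MWA over SPA, beside 5.47% of all genes. It was Foxo1, a transcription factor held back by insulin and IGF1 signals, 5.63-fold higher in MWA. At 2-fold 4 of the 6 were higher, beside 15.7% of all genes, and 1 was lower, beside 18%. The lower one was Akt1, 2.34-fold at its brightest probe, and its probes ran from -2.10 to 0.40 (log2).

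In the growth hormone axis 2 of the 5 genes passed 5-fold upwards for MWA over SPA, beside 5.47% of all genes. Ghr, the growth hormone receptor, had levels of 0.82 in SVC, 1.20 in SPA and 5.46 in MWA (log2), with MWA 19.1-fold above SPA, and all 4 of its probes were higher in MWA. Cish, a feedback inhibitor that growth hormone induces, was 39.9-fold higher. Socs2, Stat5a and Stat5b, the rest of this list, had log2 ratios of 0.32, 0.26 and 0.53 at their brightest probes. The lowest ratio at any of their probes was -0.96 (Stat5b) and the highest 1.35 (Stat5a). Igf1, which growth hormone induces in many tissues, had a log2 ratio of 0.13 in the same comparison.

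The 4 RNA regulators and the relatives with an IGFBP domain ran mainly the other way. Igf2bp2 and Igf2bp3, which encode proteins that bind the Igf2 mRNA, were lower in MWA, 6.81-fold and 17.8-fold below SPA, and 1 of the other probes of Igf2bp3 gave -1.75 (log2), under 5-fold. The imprinted neighbour of Igf2, H19, had a log2 ratio of 0.03 for MWA over SPA. Of the 7 relatives, Ccn4 and Ccn5 were 47.5-fold and 28.5-fold below SPA in MWA and Kazald1 was 5.27-fold below it. In contrast Esm1, known from endothelial cells, was 6.39-fold higher and Ccn1 was 2.60-fold higher. The other probe of Ccn4 gave -1.66 (log2), which is under 5-fold. Ccn2, the connective tissue growth factor gene, was 4.77-fold lower in MWA than in SPA and 13.5-fold lower than in SVC.

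**Figure D5:**
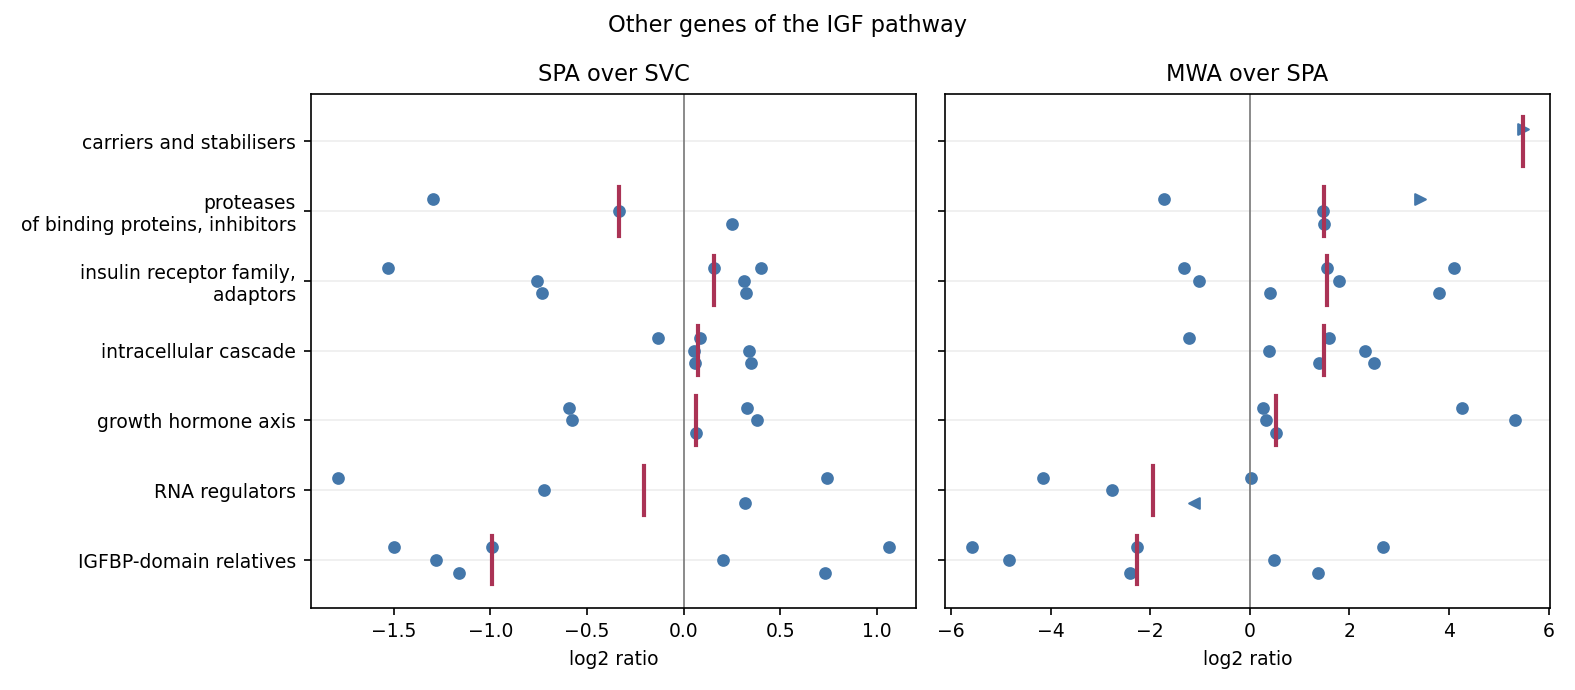
Log2 ratios of the other IGF pathway genes by list, for SPA over SVC and MWA over SPA (1 array per fraction, different axis ranges). Points are genes at their brightest probe, triangles are bounds, and red bars are list medians. The spread is wider for MWA over SPA, as it is over all genes (median size of the log2 ratio 0.66, against 0.25). For MWA over SPA the median of the insulin receptor family and adaptors is 1.55 and that of the relatives with an IGFBP domain is -2.25.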

How the data were processed

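SVC, SPA and MWA were measured on 1 array each. The authors deposited, for each spot, a background-subtracted intensity from Agilent Feature Extraction 10.7.3.1. The authors also deposited a ratio of each processed signal to 1 constant per array, used as an alternative. Control spots and feature outliers were left out, spots of 1 probe were averaged, and each array was scaled to its 75th percentile over non-control spots. A dim probe was bounded by its own signal or, where that was lower, by the lowest well-above-background signal of its array, which was 13.9 (SVC), 12.5 (SPA) and 10.3 (MWA). All member genes were named at every probe, pathway genes where at least 5-fold apart in a comparison (others named are picked for context after their values were seen), markers by list, and 3 nearest genes for members at least 5-fold apart and well above background on all arrays. The members and lists were chosen with earlier results of these data known. Positions are mm9, from the array annotation, and no mm9 gene annotation was used here. The steps were tested on simulated data. Python 3.11.15, numpy 2.4.6, pandas 2.3.3, matplotlib 3.10.9, R 4.3.3 and limma 3.58.1 (normexp, offset 50) were used.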

Additional observations from a re-analysis of the deposited data

How the results depend on the processing

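No paired analysis was possible because each fraction has 1 array and no test was run. All settings were planned, and none turned the sign of a ratio that was at least 2-fold in the main setting. With the normexp background correction, the family had 0 genes past 5-fold downwards for SPA over SVC, and upwards 1 for MWA over SPA and 1 for MWA over SVC, and the 2-fold count upwards for MWA over SPA was 3, against 4. With quantile normalization 4 genes passed 2-fold upwards for MWA over SVC. Where both arrays had to be well above background, 1 gene passed 5-fold and 1 passed 2-fold upwards for MWA over SVC, because Igf2 is then not read. When the probes of each gene were summarised by their median, 1 gene passed 5-fold upwards for MWA over SPA and 1 for MWA over SVC. Igf2 was not counted there, and its median includes a bound in both comparisons. At the probe with the largest ratio, 2 genes passed 2-fold upwards for SPA over SVC and 2 passed 2-fold downwards for MWA over SPA. Igf1 was among them in both comparisons, and its log2 ratio for MWA over SPA was -1.64, against 0.13 at its brightest probe. None of the counts moved by over 1.5 times with the other 75th percentile, with the ratios as deposited, without a filter on dim probes or without spots whose local background was outlying. The signal over background limits what can be read of Igf2 and of the second probes of Igfbp3 and Igfbp5.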
